A study of Mus musculus with 40 samples.

Results

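The mouse macrophage lines Raw 264 and J774 were set against 5 cultured lines of the fibroblast kind: the preadipocyte lines 3T3-L1, 3T3-F442A, Ob1774 and Hgfu and the mesenchymal stem cell line C3H-10T1/2. The choice of samples followed their titles and took in 13 of the 40 arrays of the series: 3 of Raw 264 and 2 of J774, against 2 of 3T3-L1, 1 each of 3T3-F442A, Ob1774 and Hgfu, and 3 of C3H-10T1/2. Each line carried the same weight, so the comparison had 2 lines on one side and 5 on the other. All 7 lines were kept at low density, short of confluence, in DMEM with 10% FCS, and the labels give no added agent and no genetic change for any of them. Each line is an established line grown in culture, so a difference between the groups is one between these lines, and the genetic background of a line cannot be told apart from its cell type. Total RNA, treated with DNase, was turned into cDNA labelled with 33P and hybridized to nylon filters from Resgen with 5760 spots. Nothing in the labels says that arrays of a line came from separate cultures, so the line, not the array, was the unit of the main test. That test took the 7 lines as independent of each other, which was not tested. 3T3-L1 and 3T3-F442A share a part of their names, and the p-values would be too small if lines of a group share an origin.

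Macrophages are phagocytes of the myeloid lineage. They engulf particles through Fc and complement receptors, make superoxide with the phagocyte oxidase and recruit other leukocytes with chemokines. Preadipocytes and C3H-10T1/2 cells are adherent mesenchymal cells that lay down collagen and elastin, and they can be driven to become fat cells, or, for C3H-10T1/2, other mesenchymal types.

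Levels are given on a log2 scale of quantile normalized spot intensity, to which 38423 was added, the value below which 10% of the normalized intensities lie. On this scale the median spot lay at 16.52, the 10th percentile at 16.23 and the 99th percentile at 19.04, so the range between dim and bright spots is narrow. The lowest deposited intensity of an array lay between 7980 and 51180 in the 13 arrays, and a fold change of a dim gene is understated. Levels of different genes are not compared, because each spot carries its own probe.

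Several arrays stood apart from their labels before any gene was considered. Raw 264 replicate 1 correlated best across spots with 3T3-L1 replicate 1 (Pearson's r = 0.899), while its lowest correlation within its own line was 0.813. Raw 264 replicate 3 and C3H-10T1/2 replicate 2 were also closest to an array from the other side, 3T3-L1 replicate 2 (r = 0.924) and Raw 264 replicate 3 (r = 0.912). The 2 J774 arrays were closest to each other (r = 0.938). Hgfu had the narrowest spread, with a 99th percentile of 3.87 times its median, and its closest array was J774 replicate 2 (r = 0.872). The main calls, and Cybb, Ccl9, Tmsb10, Pacc1, Ep400 and Ddx54, where 1 of these arrays stands apart, are therefore also given without it. Within the mesenchymal side, 3T3-L1 replicate 1 was closer to 3T3-F442A (r = 0.945) than to the other 3T3-L1 array (r = 0.927).

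Marker genes of cell types were compared between the lines. Of 13 defining macrophage markers, 4 have a spot here: Fcer1g, Cybb, Itgb2 and Mpeg1. For all 4, the means of both macrophage lines lay above the means of all 5 other lines, as they did for 4.84% of all genes. The marker lists were chosen with earlier results of these data known, so they give no independent check of the identity of the lines. Cd163, Itgax and Mertk, which are on the longer macrophage marker list only, did not separate the lines (log2 fold changes of 0.34, 0.11 and -0.11). Of 11 fibroblast and mesenchymal markers 2 were measured, Timp2 and Col4a1, and both had lower mean levels in the macrophage lines, though the lines overlapped for each.

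Over the 7 line means, 7 of 5760 spots (0.122%) were called higher in the macrophage lines at an adjusted p under 0.05 (limma, two-sided, Benjamini-Hochberg over all spots), and 0 were called lower. At an unadjusted p under 0.05 there were 183 higher spots (3.18%) and 118 lower spots (2.05%). The 3 called spots with a gene name were Aldoa, Fcer1g and Parvg. The other 4 called spots have no gene in the annotation used and had log2 fold changes between 1.02 and 1.32. Both macrophage line means lay above all 5 other line means for 267 spots (4.64%) and below them for 263 (4.57%). All 5 macrophage arrays lay above all 8 other arrays for 17 spots (0.295%), 6 of them called, and below them for 14 (0.243%).

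Fcer1g encodes the gamma chain that carries the signal of Fc receptors in myeloid cells. Its log2 levels were 17.80, 18.71 and 17.83 in Raw 264 and 17.42 and 17.32 in J774, against 16.65 and 16.50 in 3T3-L1, 16.60 in 3T3-F442A, 16.48 in Ob1774, 16.94 in Hgfu and 16.68, 16.74 and 16.67 in C3H-10T1/2. All 5 macrophage arrays lay above all 8 other arrays, and Hgfu was the highest of the others. The log2 fold change was 1.08 ± 0.18 (SE, 2 lines against 5; limma adjusted p = 0.039). In normalized intensity the mean of the macrophage lines was 2.97 times that of the other lines.

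Aldoa encodes the glycolytic enzyme aldolase A. Raw 264 had log2 levels of 18.69, 19.25 and 18.48 and J774 had 18.62 and 17.80, against 17.19 and 17.24 in 3T3-L1, 17.58 in 3T3-F442A, 17.48 in Ob1774, 17.44 in Hgfu and 17.57, 17.55 and 16.66 in C3H-10T1/2. The groups did not overlap, and the lowest macrophage array was J774 replicate 2. The log2 fold change was 1.11 ± 0.16 (SE; limma adjusted p = 0.024), and the ratio of mean normalized intensities was 2.60. Without J774 replicate 1 it was 0.91 and the call was lost (limma adjusted p = 0.26).

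Parvg encodes gamma-parvin, an adaptor at integrin adhesions that is found mainly in blood cells. Its log2 levels were 16.96, 16.98 and 17.17 in Raw 264 and 16.97 and 16.91 in J774, and between 16.16 and 16.52 in the 8 other arrays, with a median of 16.26. Raw 264 and J774 were nearly level, and C3H-10T1/2 replicate 3 was the highest of the others. The log2 fold change was 0.72 ± 0.11 (SE; limma adjusted p = 0.029). Several other arrays lay near the 10th percentile of all values, so this fold change is understated.

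The 3 calls depended on which lines entered. When each line or array was left out in turn, in 17 ways, Fcer1g was called in 8, Aldoa in 14 and Parvg in 10. Without Raw 264, which left J774 as the 1 macrophage line, the log2 fold changes were lower, at 0.71 for Fcer1g, 0.81 for Aldoa and 0.67 for Parvg. Without J774, which left Raw 264 alone, they were higher, at 1.46, 1.41 and 0.77. Without Ob1774 none of the 3 was called (limma adjusted p = 0.15, 0.053 and 0.089). Without Raw 264 replicate 1 all 3 stayed called (adjusted p = 0.044, 0.020 and 0.023), as they did without Hgfu (adjusted p = 0.0083, 0.0083 and 0.012). Leaving out Raw 264 replicate 3 gave 10 called spots and leaving out C3H-10T1/2 replicate 2 gave 13, each with all 7 main calls. With the arrays scaled to a common median in place of quantiles 0 spots were called, and the 3 genes had 1.05, 0.89 and 0.67 (adjusted p = 0.080, 0.19 and 0.080).

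The upstream sequence of Fcer1g and Parvg is shown because both are myeloid or blood cell genes that were called together. A pair of motifs of purine-rich letters, of the kind found in sites of ETS factors such as the myeloid regulator PU.1, were searched on both strands of the 250 bases before each RefSeq start, GAGGAA first and then AGGAAG, which overlaps it in the letters AGGAA. The second was added after the first was seen to be missing from the Fcer1g window. Matches are in capitals, the coordinates are those of GRCm38.p6, and each sequence is written on the strand of its gene.
Fcer1g, chr1:171234350-171234599, minus strand: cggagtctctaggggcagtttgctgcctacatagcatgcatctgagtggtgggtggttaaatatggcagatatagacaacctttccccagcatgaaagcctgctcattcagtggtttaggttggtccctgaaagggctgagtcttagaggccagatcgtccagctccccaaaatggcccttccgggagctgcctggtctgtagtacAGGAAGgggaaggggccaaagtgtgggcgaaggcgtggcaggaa
Parvg, chr15:84324470-84324719, plus strand, the first of 2 starts: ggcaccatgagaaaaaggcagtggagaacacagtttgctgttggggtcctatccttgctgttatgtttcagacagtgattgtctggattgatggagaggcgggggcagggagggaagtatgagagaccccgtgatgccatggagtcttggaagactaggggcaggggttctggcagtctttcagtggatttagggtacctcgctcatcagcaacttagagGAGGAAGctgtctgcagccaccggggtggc
Fcer1g holds AGGAAG 44 bases before its start. The window of the first Parvg start holds GAGGAA at 30 bases and AGGAAG at 29 bases, as 1 run. Across 10 genes looked up after their values were seen, 7 had an entry, with 10 windows, and 3 windows of 3 genes held a match; the third was the first of 3 Aldoa starts. GAGGAA occurs in 23.3% and AGGAAG in 29.5% of all 32851 windows of this length, and either in 39.2%, so a match in 3 of 10 windows is no more than the background.

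**Figure D1:**
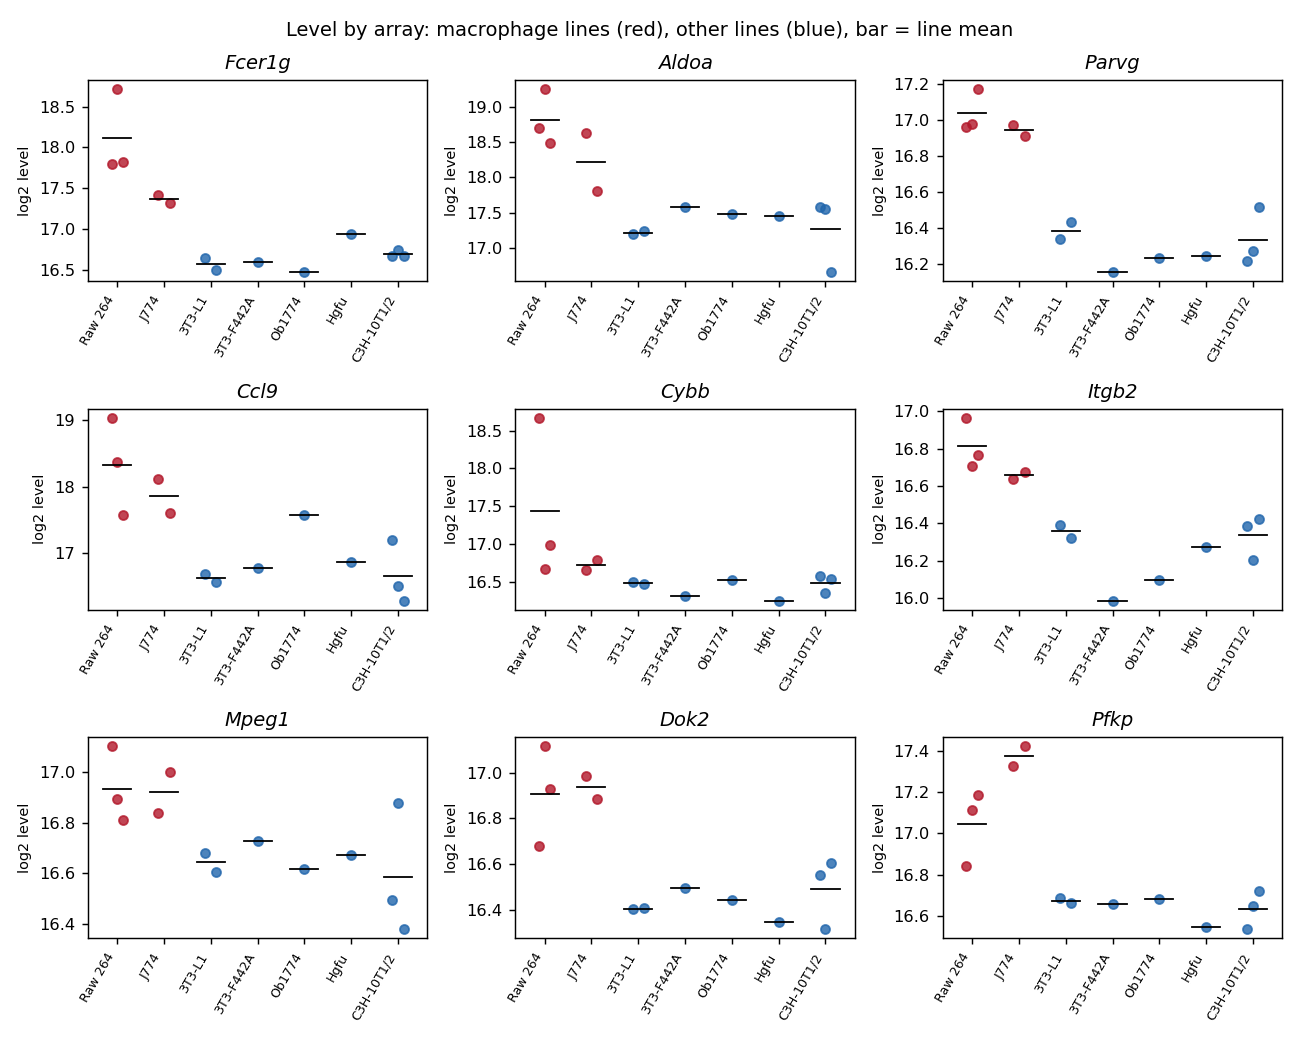
Log2 level (vertical axis) of 9 genes in each array of the 7 lines (horizontal axis), macrophage lines in red and the other lines in blue, with a bar at the mean of each line. All 5 macrophage arrays lie above all 8 other arrays for Fcer1g, Aldoa, Parvg, Cybb, Itgb2, Dok2 and Pfkp, as they do for 17 of all 5760 spots (0.295%). For Cybb 1 Raw 264 array at 18.67 stands far above the other 4 macrophage arrays.

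The macrophage marker list had 7 measured members of 33. One, Fcer1g, was called higher and none was called lower, against 3 called higher among all 3284 genes (0.0914%). The median log2 fold change of the 7 was 0.34, against -0.01 over all genes. Both macrophage line means lay above all 5 others for 4 of the 7 members, against 4.84% of all genes.

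Cybb encodes the catalytic subunit of the phagocyte oxidase. Its log2 levels were 18.67, 16.66 and 16.98 in Raw 264 and 16.66 and 16.79 in J774, against a lowest of 16.25, a median of 16.48 and a highest of 16.57 in the 8 other arrays. The groups did not overlap, but replicate 1 of Raw 264 stood far above the other 4 macrophage arrays. The log2 fold change was 0.67 ± 0.17 (SE; limma adjusted p = 0.24), and without that array it was 0.36 ± 0.12 (adjusted p = 0.43). Itgb2, the beta-2 integrin chain shared by leukocyte adhesion and complement receptors, had log2 levels of 16.96, 16.71 and 16.76 in Raw 264 and 16.64 and 16.68 in J774, against 15.99 to 16.42 in the other arrays. The groups did not overlap here either, and the log2 fold change of 0.52 ± 0.13 did not pass the test (SE; limma adjusted p = 0.24). All 5 macrophage arrays lay above all 8 others for 17 of all 5760 spots (0.295%).

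Mpeg1, a pore-forming protein of phagocytes, had log2 levels of 17.10, 16.89 and 16.81 in Raw 264 and 16.84 and 17.00 in J774, against 16.38 to 16.88 in the other arrays. The ranges overlapped through C3H-10T1/2 replicate 2, which lay above 2 of the 5 macrophage arrays, and the log2 fold change was 0.28 ± 0.11 (SE; limma adjusted p = 0.83). The remaining members did not separate the lines. Cd163, a scavenger receptor for haemoglobin, had a log2 fold change of 0.34 ± 0.17, with J774 at 17.39 and Hgfu at 17.10. Itgax, an integrin of dendritic cells and some macrophages, had 0.11 ± 0.15, and Mertk, a receptor for the uptake of apoptotic cells, had -0.11 ± 0.13 (SE, limma adjusted p = 0.999 for each of the 3).

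Chemokines and cytokines had 3 measured members of 33. Ccl9, a macrophage chemokine, had log2 levels of 19.04, 18.37 and 17.57 in Raw 264 and 18.11 and 17.61 in J774, against 16.28 to 17.57 in the other arrays with a median of 16.73. Ob1774 reached the level of the lowest macrophage array, and every other array of the mesenchymal lines was lower. The log2 fold change of 1.20 ± 0.22 missed the threshold (SE; limma adjusted p = 0.066). It was called in 4 of the 17 fits that left out a line or array, such as without Ob1774 (1.36, adjusted p = 0.011) or Hgfu (1.19, adjusted p = 0.043). It was not called without Raw 264 (0.96, adjusted p = 0.55) or without Raw 264 replicate 1 (1.02, adjusted p = 0.077). In the fit of numbered arrays against C3H-10T1/2 alone it was called with the replicate block (1.29, limma adjusted p = 0.0091) and not without it (1.43, adjusted p = 0.13). The 2 other members, Csf1 and Cxcl12, which encode a macrophage growth factor and a stromal chemokine, were not called.

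Among 13 measured genes of leukocyte signalling, 9 had a positive and 4 a negative log2 fold change, with a median of 0.03. Of these 13, 0 were called, against 3 of all 3284 genes (0.0914%). Dok2, an adaptor that restrains tyrosine kinase signals in blood cells, had log2 levels of 16.68, 17.12 and 16.93 in Raw 264 and 16.98 and 16.89 in J774, against 16.32 to 16.61 in the other arrays. The groups did not overlap, as for 17 of all 5760 spots (0.295%), and the log2 fold change was 0.48 ± 0.11 (SE; limma adjusted p = 0.20). Ptpre, a receptor-type tyrosine phosphatase, had 0.26 ± 0.12, and the lymphoid regulator Ikzf1 had -0.28 ± 0.12 (SE; limma adjusted p = 0.95 and 0.92). Antigen presentation had a median of 0.17 over 7 members, 6 of them positive, led by B2m, the light chain of class I molecules, at 0.75 ± 0.25 (SE; limma adjusted p = 0.58). B2m did not separate the lines: J774 averaged 18.03 and Ob1774 18.09. Lysosome and endocytosis genes had a median of -0.02 over 7 members, and innate sensing genes a median of 0.02 over 7, with 0 called in either list.

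Genes of the mesenchymal side gave 0 calls, where 0 of all 5760 spots were called lower and 3 of all 3284 genes were called higher (0.0914%). The extracellular matrix list had 11 measured members of 68, with a median log2 fold change of -0.14 and 7 members negative. Eln, which encodes elastin, had log2 line means of 16.80 in Raw 264 and 16.57 in J774, against 16.85 to 17.29 in the other lines, and a log2 fold change of -0.46 ± 0.14 (SE; limma adjusted p = 0.43). The macrophage lines were lowest, with C3H-10T1/2 just above them. Col4a1, a basement membrane collagen, had -0.34 ± 0.16, Mmp2, a matrix protease, -0.30 ± 0.14, and Tnc, the matrix glycoprotein tenascin C, went the other way at 0.31 ± 0.14 (SE; limma adjusted p = 0.95, 0.95 and 0.92). Both macrophage line means lay below all 5 others for 3 members of this list, against 4.2% of all genes.

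The fibroblast adhesion and cytoskeleton list had 9 measured members of 50 and a median of -0.11. Tmsb10, an actin-binding thymosin, had the most negative log2 fold change of all 3284 genes, -0.99 ± 0.36, yet it was not called (SE; limma adjusted p = 0.74). Its levels were 19.03, 17.17 and 17.46 in Raw 264 and 16.95 and 17.29 in J774, against 17.55 to 19.59 in the other arrays. Raw 264 replicate 1 lay among the mesenchymal arrays, and the other 4 macrophage arrays lay below all of them. Without that array the log2 fold change was -1.28 and was not called over line means (adjusted p = 0.19), though it was in the fit over arrays (adjusted p = 0.021), an alternative chosen after seeing the data. Lgals1, which encodes galectin-1, had log2 levels of 19.19, 19.12 and 17.98 in Raw 264 and 19.12 and 17.41 in J774, against 18.30 to 19.78 in the other arrays. These ranges overlapped, and the log2 fold change was -0.66 ± 0.18 (SE; limma adjusted p = 0.35). Cavin1, a coat protein of caveolae, had -0.37 ± 0.16, and Timp2, an inhibitor of matrix proteases, had -0.62 ± 0.29 (SE; limma adjusted p = 0.92 and 0.95).

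The mesenchymal and preadipocyte regulators had 19 measured members of 57, with 6 positive, 13 negative, a median of -0.01 and 0 called. Fgfr1, a fibroblast growth factor receptor, had -0.28 ± 0.11 (SE; limma adjusted p = 0.88). The 7 measured adipocyte and lipid genes lay between -0.12 and 0.15, with a median of 0.05.

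The lists for other cell types and processes also gave 0 calls over line means, with 3 calls among all 3284 genes (0.0914%). Their medians were -0.06 for 4 lymphocyte genes, -0.01 for 3 endothelial genes, 0.02 for 9 skeletal muscle genes, 0.13 for 6 liver genes, -0.03 for 7 secreted protease inhibitors, -0.01 for 12 cell cycle genes, -0.02 for 8 immediate early and heat shock genes and -0.04 for 8 genes of oxidative phosphorylation. The erythroid gene Hbb-b1 had -0.14. Kif20a, a kinesin of cell division, had -0.29 ± 0.13 (SE; limma adjusted p = 0.94). The 6 measured genes of ribosomal proteins had a median of 0.21, and Rpl27a had 0.79 ± 0.20 (SE; limma adjusted p = 0.24), with line means of 18.60 in Raw 264 and 17.99 in J774, against 17.17 to 17.86. In all, 154 of 662 list genes were measured, and 1 of them, Fcer1g, was called.

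**Figure D2:**
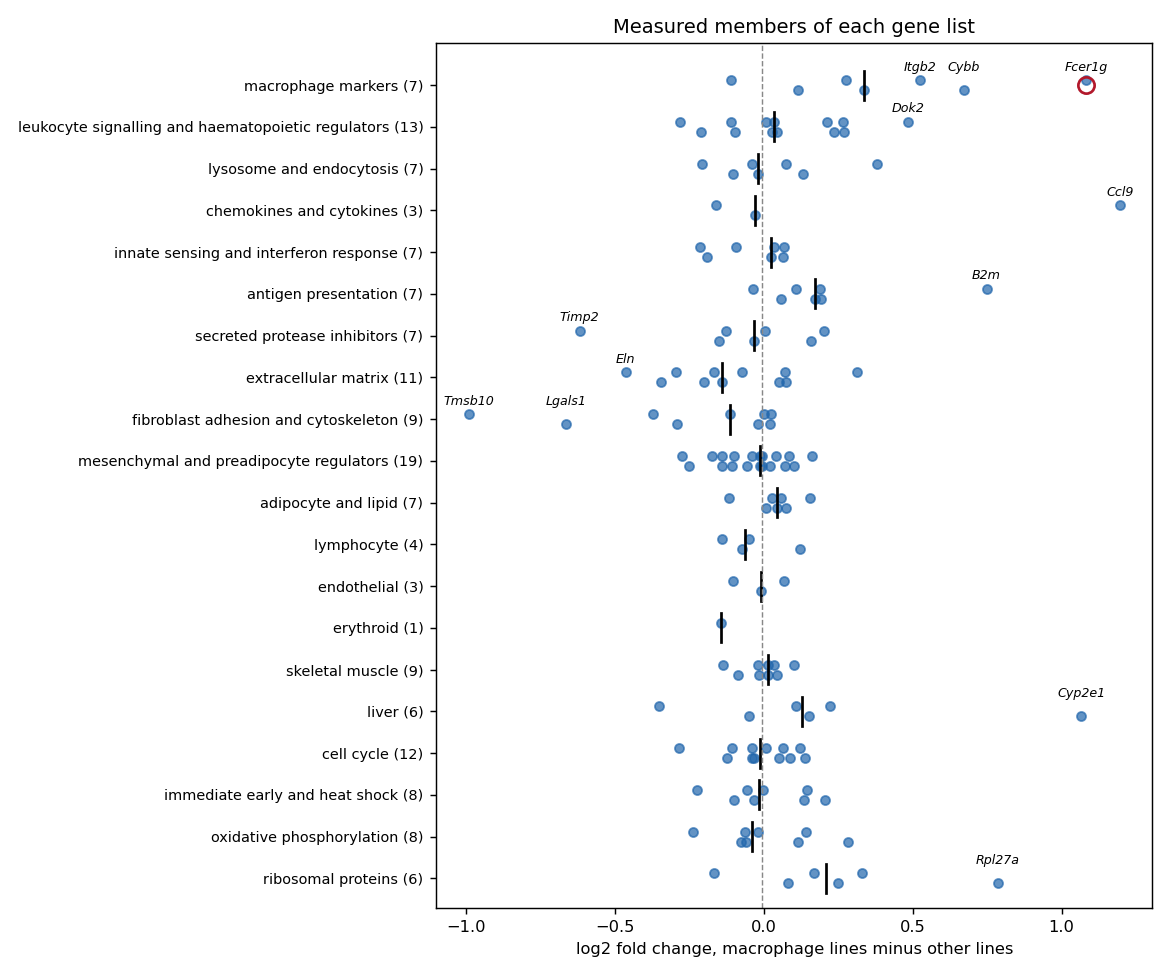
Log2 fold change of macrophage lines minus other lines (horizontal axis) for each measured member of the 20 gene lists (rows, number of members in brackets), with a bar at the median of each list, a dashed line at the median of all genes and a red ring around the called gene. Macrophage markers have a median of 0.34, and Fcer1g is the only ringed point.

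When the 13 arrays were tested in a fit of all 37 arrays that weighted lines equally but took its error from the spread between arrays of a group, 37 spots were called higher (0.642%) and 8 lower (0.139%), 45 in all (0.781%). Counted by the brightest spot of each gene, these were 18 genes higher (0.548%) and 6 lower (0.183%). All 7 spots called over line means were among them. Without Hgfu this fit called 95 spots, and without Raw 264 replicate 1 it called 94, both alternatives chosen after seeing the data. This fit does not count the spread between lines as error, so its calls do not extend to macrophage lines at large. The spread between arrays of a group may be technical, so the calls hold at most for the samples on these arrays. 3T3-F442A, Ob1774 and Hgfu, with 1 array each, add nothing to that error. The genes in the next 3 paragraphs that were called here alone were named after their values were seen.

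Besides Ccl9, Aldoa, Fcer1g, Dok2 and Parvg, the genes called higher held Arrb2, Pfkp, Cyp2e1, Igsf8, Ctsc, Necap1, Ppp1r18, Psmd8, Uba6, Pacc1, Mapk1ip1 and Trappc13. Pfkp encodes the platelet type of phosphofructokinase, a glycolytic enzyme like aldolase A. Its log2 levels were 16.84, 17.11 and 17.19 in Raw 264 and 17.33 and 17.42 in J774, against 16.53 to 16.72 in the other arrays. No array overlapped, and the log2 fold change was 0.57 ± 0.09 (SE, fit over arrays; limma adjusted p = 0.00051) and was not called over line means (adjusted p = 0.15). Arrb2 encodes beta-arrestin 2, which stops signals of G protein-coupled receptors. Its log2 levels were 16.99, 17.55 and 17.06 in Raw 264 and 16.95 and 16.98 in J774, against 16.18 to 16.74 in the other arrays, again without overlap. All 5 macrophage arrays lay above all 8 others for 17 of all 5760 spots (0.295%). The log2 fold change of Arrb2 was 0.61 ± 0.10 (SE, fit over arrays; limma adjusted p = 0.00051).

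Ctsc, the lysosomal protease cathepsin C, had a log2 fold change of 0.38 ± 0.09, Igsf8, a membrane protein of the immunoglobulin family, 0.45 ± 0.10, and Psmd8, a proteasome subunit, 0.38 ± 0.09 (SE, fit over arrays; limma adjusted p = 0.044, 0.017 and 0.037). Cyp2e1, a cytochrome P450 best known from liver, had 1.07 ± 0.23, but C3H-10T1/2 replicate 2 reached 18.96, above Raw 264 replicates 1 and 3 (SE, fit over arrays; limma adjusted p = 0.017). Necap1, a protein of clathrin-coated vesicles, had 0.41 ± 0.10 and Ppp1r18, a regulatory subunit of protein phosphatase 1, 0.40 ± 0.08 (SE, fit over arrays; limma adjusted p = 0.034 and 0.016). The list was completed by a gene known only by a clone name, a spot of Mocs2 and a spot of Pilra. That spot of Pilra, an inhibitory receptor of myeloid cells, had 0.53, while the brighter spot of that gene had -0.08.

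The 6 named genes called lower had fold changes between -0.33 and -0.45 on the log2 scale. They were Neo1, which encodes the receptor neogenin, at -0.44 ± 0.09, Rapgef5, an exchange factor for Rap proteins, at -0.36 ± 0.08, Zfp943, a zinc finger protein, at -0.45 ± 0.08, and Fbxo44, an F-box protein, Pcnx and Dhrs7c, each at -0.33 with SEs of 0.08, 0.07 and 0.08 (SE, fit over arrays). For Zfp943 and Fbxo44 all 5 macrophage arrays lay below all 8 others, as they did for 14 of all 5760 spots (0.243%). For all 6, the log2 levels of the macrophage lines were between 16.14 and 16.41, near the 10th percentile of all values.

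**Figure D3:**
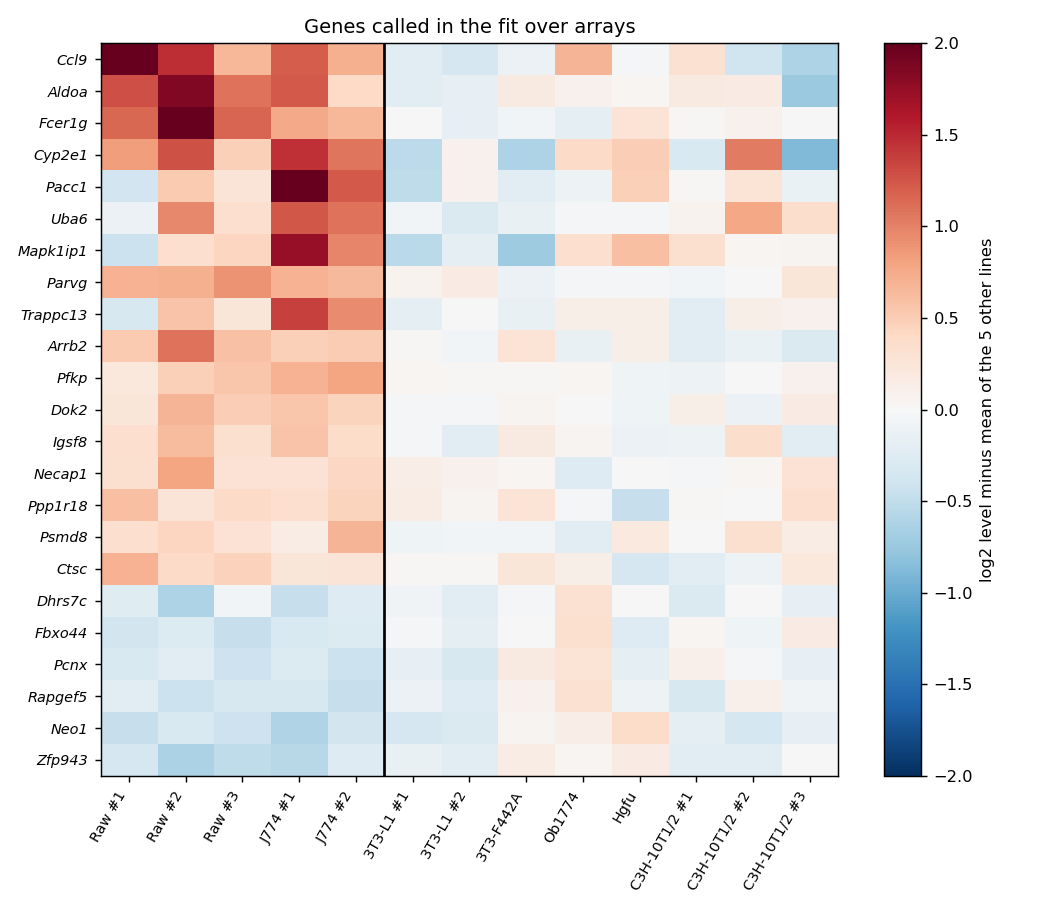
Log2 level of each array (columns) minus the mean of the 5 other lines (colour scale), for the 23 genes called in the fit over arrays (rows, ordered by fold change). The 5 macrophage arrays stand left of the black line, and Pacc1, Uba6, Mapk1ip1 and Trappc13 are low in Raw 264 replicate 1 and high in both J774 arrays.

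**Figure D4:**
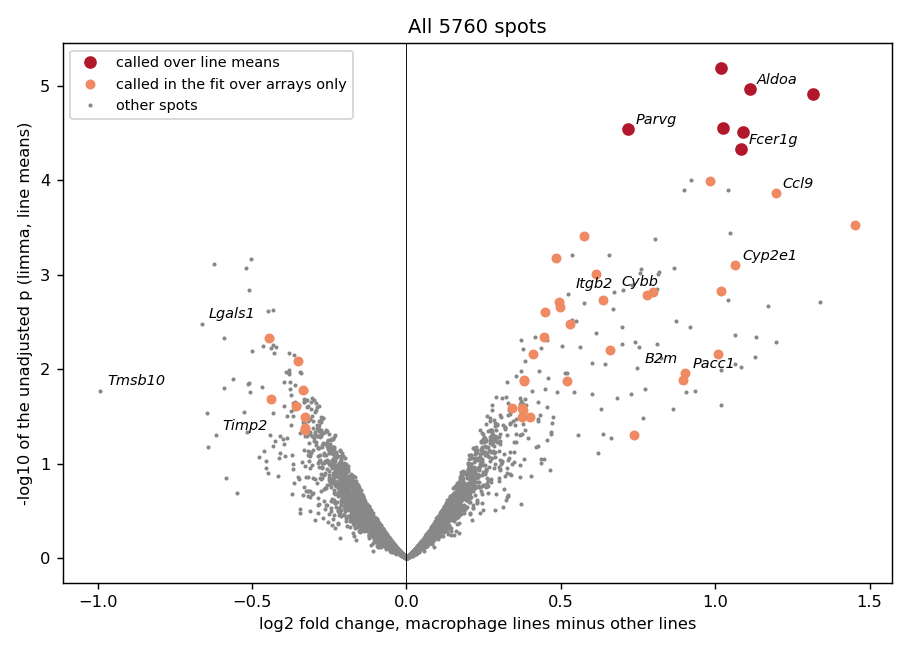
Log2 fold change of macrophage lines minus other lines (horizontal axis) against -log10 of the unadjusted p of limma over line means (vertical axis) for all 5760 spots. The 7 called spots (red) are all to the right, the 38 spots called in the fit over arrays alone (orange) lie on both sides, and the most negative named gene, Tmsb10, was not called.

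The macrophage lines were not alike. In the same fit over arrays, 6 spots (0.104%) were called between Raw 264 and J774, all lower in Raw 264, and 615 spots (10.7%) had an unadjusted p under 0.05. Pacc1, a proton-activated chloride channel, had log2 levels of 16.50, 17.40 and 17.13 in Raw 264, against 18.99 and 18.10 in J774, a log2 difference of -1.54 ± 0.30 (SE, 3 arrays against 2; limma adjusted p = 0.022). The lines did not overlap. J774 alone stood above the mesenchymal lines, whose line means ran from 16.66 to 17.34. Of the other 5 spots 1 belongs to Mocs2 and is not the brighter spot of that gene, and 4 have no gene. Trappc13, a subunit of a vesicle tethering complex, had -0.99 ± 0.21 and missed the threshold (SE; limma adjusted p = 0.051), and its second spot had a log2 fold change of -0.01 in the comparison of lines. Without Raw 264 replicate 1, or without J774 replicate 1, 0 spots were called between the lines, and Pacc1 had -1.28 and -1.09 (adjusted p = 0.14 and 0.74).

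None of 6 genes compared between the macrophage lines, 4 of them myeloid, passed the test. The log2 difference, Raw 264 minus J774, was 0.74 ± 0.19 for Fcer1g (limma adjusted p = 0.14), 0.72 ± 0.29 for Cybb (adjusted p = 0.40), 0.15 ± 0.21 for Itgb2 (adjusted p = 0.82) and 0.47 ± 0.29 for Ccl9 (adjusted p = 0.57). For Aldoa it was 0.60 ± 0.31 (adjusted p = 0.50), and for Parvg 0.09 ± 0.12 (adjusted p = 0.81). For Fcer1g every Raw 264 array lay above both J774 arrays. Without any scaling between arrays all 6 differences were negative, from -0.17 to -0.57, where the median of all spots shifted by -0.72.

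The mesenchymal lines also differed among themselves. Between C3H-10T1/2 and the equally weighted preadipocyte lines, 2 spots were called higher (0.0347%) and 3 lower (0.0521%), or 5 in all (0.0868%), while 600 (10.4%) had an unadjusted p under 0.05. These calls came from the fit over arrays, whose error leaves out the spread between the preadipocyte lines. They hold at most for the samples on these arrays, not for C3H-10T1/2 against preadipocyte lines at large. Both higher spots have no gene. Slpi, a secreted inhibitor of leukocyte proteases, had log2 levels of 16.22, 16.29 and 16.20 in C3H-10T1/2, against 16.57 and 16.41 in 3T3-L1, 16.71 in 3T3-F442A, 17.25 in Ob1774 and 17.07 in Hgfu. C3H-10T1/2 was lowest, and the log2 difference was -0.65 ± 0.11 (SE; limma adjusted p = 0.0077). Ep400, a chromatin remodeller, had -0.46 ± 0.09, and Ddx54, an RNA helicase, -0.45 ± 0.08 (SE; limma adjusted p = 0.021 and 0.019). For Ep400 and Ddx54 Hgfu was the highest line, at 17.07 and 17.23, while the 3 other preadipocyte lines were at most 16.66. Without Hgfu neither was called, with log2 differences of -0.29 and -0.27 (limma adjusted p = 0.35 and 0.36). Ep400 also lost its call without C3H-10T1/2 replicate 1 or 2 (adjusted p = 0.072 and 0.13), and Ddx54 without replicate 2 or 3 (adjusted p = 0.12 and 0.18), while Slpi kept its call in all 8 such fits. In a fit of the 7 lines only, and with quantiles over the 13 arrays, none of the 3 genes was called, with adjusted p = 0.36 and 0.32 for Slpi, and 0 spots were called with median scaling or no scaling.

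The same genes were also measured in primary cells, on arrays of the series that the lines do not share. These were 3 arrays of peritoneal macrophages, washed from the peritoneal cavity and plated for 24 h to remove cells that did not adhere, and 3 of stroma-vascular cells of inguinal fat, adherent cells 24 h after plating. Either can hold other cell types, and fewer cells of a type and less RNA per cell cannot be told apart. In this comparison 17 spots were called higher in peritoneal macrophages (0.295%) and 12 lower (0.208%), 29 in all (0.503%), and 315 (5.47%) had an unadjusted p under 0.05.

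Fcer1g had log2 levels of 17.60, 17.65 and 17.85 in peritoneal macrophages, against 16.70, 16.95 and 17.01 in stroma-vascular cells, a log2 fold change of 0.82 ± 0.17 (SE, 3 arrays each; limma adjusted p = 0.017). The groups did not overlap. The call was lost without peritoneal macrophage replicate 2 or 3, or without stroma-vascular replicate 1 or 2 (adjusted p = 0.052, 0.17, 0.16 and 0.052). Cybb had 18.68, 18.26 and 18.39, against 16.72, 16.68 and 16.67, a log2 fold change of 1.75 ± 0.26 (SE; limma adjusted p = 0.00039). Of the 5 arrays of the macrophage lines, Raw 264 replicate 1 alone reached that level of Cybb. Mpeg1, with 17.63, 18.19 and 17.91 against 16.81, 17.00 and 16.85, rose by 1.02 ± 0.15 (SE; limma adjusted p = 0.00022), and the highest array of the macrophage lines was at 17.10.

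Itgb2 had 18.10, 16.62 and 17.52 in peritoneal macrophages, against 16.44, 16.45 and 16.48 in stroma-vascular cells, and its log2 fold change was 0.96 ± 0.18 (SE; limma adjusted p = 0.0058). It lost the call without peritoneal macrophage replicate 1 (0.61, adjusted p = 0.065) or 3 (0.90, adjusted p = 0.053). Ccl9 had 19.59, 18.60 and 19.22, against 17.71, 17.43 and 17.45, a log2 fold change of 1.60 ± 0.26 (SE; limma adjusted p = 0.00073). The stroma-vascular cells stood above most arrays of the mesenchymal lines for Ccl9. Aldoa had 0.21 ± 0.28 and Parvg 0.04 ± 0.11 and neither was called (SE; limma adjusted p = 0.99 for each). Cd163, Mertk and Itgax had log2 fold changes of -0.06 ± 0.18, 0.20 ± 0.14 and 0.11 ± 0.16 (SE) and were not called.

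Of the 154 measured list genes, 9 were called higher and 5 lower in the primary cells. Among all 5760 spots 17 were called higher (0.295%) and 12 lower (0.208%), and the lists were chosen with earlier results of these data known. Besides those above, Slpi, Col4a1 and Csf1 have been named already and are given here, picked out after their values were seen. Col4a1 had log2 levels of 16.59, 16.87 and 16.81 in peritoneal macrophages, against 17.65, 17.59 and 17.51 in stroma-vascular cells, and fell by 0.82 ± 0.15 (SE; limma adjusted p = 0.0047). Without peritoneal macrophage replicate 1 it fell by 0.74 (adjusted p = 0.0504). Slpi had 18.40, 18.12 and 18.10 in peritoneal macrophages, against 16.57, 16.72 and 16.61 in stroma-vascular cells, and rose by 1.57 ± 0.12 (SE; limma adjusted p = 4.6e-10). Csf1 had 16.69, 16.55 and 16.63 in peritoneal macrophages, against 17.35, 17.31 and 17.00 in stroma-vascular cells, and fell by 0.60 ± 0.14 (SE; limma adjusted p = 0.036), but it was called in 1 of the 6 fits that left out an array. The groups did not overlap for any of the 3. The list genes not yet named that were called higher were Serpinb2, Plek and Asah1, at 0.64, 0.59 and 0.44 (limma adjusted p = 0.0028, 0.038 and 0.017). Those called lower were Apol9a, Gbp2 and Loxl1, at -1.08, -0.78 and -0.68 (limma adjusted p = 0.0017, 0.00052 and 0.046). The spot of Pilra that is not the brightest was also called, at 0.61 (adjusted p = 0.040). In the macrophage lines Slpi averaged 16.49 in Raw 264 and 16.94 in J774, inside the range of the 5 other lines.

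Of the 7 spots called over line means, 5 had the same direction in the primary cells and 1, Fcer1g, was called. Of the 37 spots called higher in the fit over arrays, 16 had the same direction and 3 were called higher, against 17 called higher among all 5760 spots (0.295%). That is 43.2% with the same direction, while 50.6% of all spots were positive in the primary cells. Of the 8 called lower, 4 had the same direction and 0 were called.

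**Figure D5:**
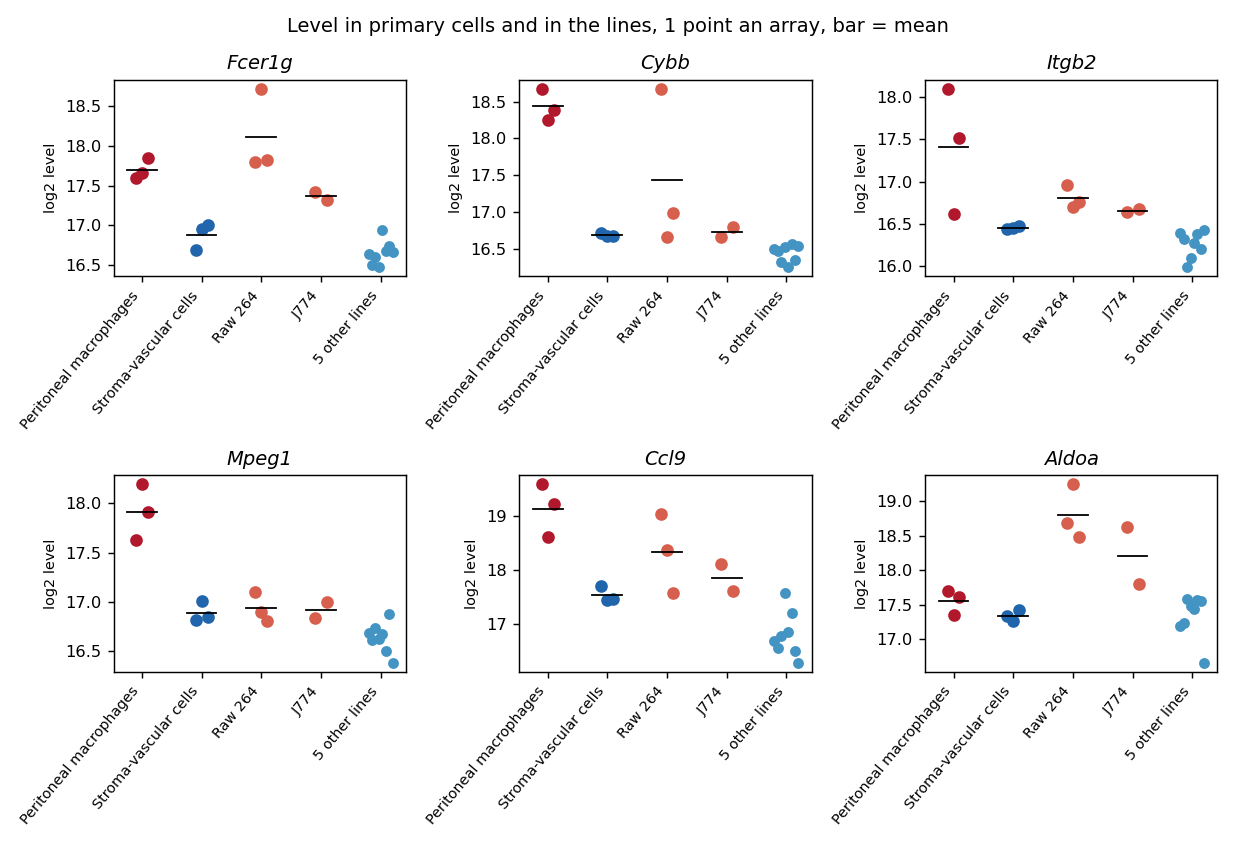
Log2 level (vertical axis) of 6 genes in peritoneal macrophages, stroma-vascular cells, Raw 264, J774 and the arrays of the 5 other lines, 1 point for each array and a bar at the mean of each of the first 4 groups. Cybb and Mpeg1 are higher in peritoneal macrophages than in nearly all arrays of the lines, whereas for Aldoa the 3 peritoneal macrophage arrays lie between 17.35 and 17.69, below all arrays of Raw 264 and J774.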

How the data were processed

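The authors deposited linear spot intensities for 5760 spots on 40 arrays; per the labels' protocols, spots were quantified with Imagene software. No source used here states its version, nor whether background was subtracted or arrays were scaled. The 3 arrays of embryonic stem cells without LIF were left out, because their values have decimals and a far wider range. Quantile normalization covered the other 37, and 38423 was added before log2. Of the 5760 spots, 3420 have 1 gene symbol in the platform annotation, 98 several and 2242 none. The 3420 spots name 3284 genes; symbols were updated to GRCm38.p6 for 3346 spots, and the brightest spot stands for a gene. Depth is not defined for arrays, and their number limits the precision.

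Arrays of a line were averaged, and 7 line means were fitted with limma 3.58.1 in R 4.3.3 (lmFit, eBayes; 5 residual degrees of freedom, median SE 0.13). The other comparisons came from 1 fit of 37 arrays in 16 groups with 21 residual degrees of freedom. Two-sided p-values were adjusted over all spots (Benjamini-Hochberg), and a spot was called where the adjusted p was under 0.05. P-values of the fit over arrays measure the spread between samples that may be technical. The scripts were tested on simulated data. Python 3.11.15 and matplotlib 3.10.9 drew the figures.

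The members, the gene lists and the naming rule were chosen with earlier results of these data known. The rule named up to 14 called genes in each direction, every measured macrophage marker, up to 4 members of each other list by p, and called genes between lines. Of the list members it named, values are given for those with an unadjusted p under 0.05, a limit chosen after the values were seen; 53 others lay between -0.35 and 0.33. Alternatives covered the scaling, offset, background, filter, averaging of spots, local trend, variance model, unit of the test, reference lines, replicate block and each line or array left out.

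Same-numbered arrays of Raw 264 and C3H-10T1/2 deviated together (r from 0.11 to 0.24 over 3 pairs, against -0.14 to -0.02 over 6 pairs with other numbers). Those of J774 did not, with Raw 264 (-0.19 to -0.04, 2 pairs) or with C3H-10T1/2 (-0.23 to -0.14, 2 pairs), nor did those of the primary cells (-0.04 to 0.10, 3 pairs). Deviations were taken from the mean of each group and cancel out within it, so the values of these pairs are not separate. With 2 J774 arrays, the value for the other number is the same value with its sign reversed. The labels name no shared batch, and the fit over line means has no block.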

Additional observations from a re-analysis of the deposited data

Results flagged for a closer look

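Among the 43 genes whose 5 mesenchymal line means were examined, 1 line stood apart from the 4 others for 2 genes by Dixon's ratio of gap to range, with a critical value of 0.71. Chance gives about 1 such group in 20. Ob1774 was the highest of the 5 for Ccl9, at 17.57 against 16.86 for the next line (ratio 0.749). C3H-10T1/2 was the highest for Uba6, a ubiquitin-activating enzyme, at 16.85 against 16.42 for the next line (ratio 0.755); the log2 fold change of Uba6 in macrophage lines was 0.78.

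The macrophage lines differed from each other in Pacc1, by -1.54 on the log2 scale, Raw 264 minus J774. Its spot is row 4251 of the table, near Trappc13 (row 4270), Pfkp (row 4276) and Ppp1r18 (row 4305), which were also called in the fit over arrays. The other spots called between the lines were rows 3483, 4277, 4565 (Mocs2), 4610 and 4612, all lower in Raw 264. No source used here says whether the row is a position on the filter. With a running median over the spot order removed, Pacc1 had -1.44 and was still called (limma adjusted p = 0.034), and 13 spots were called between the lines, all 6 of the original ones among them.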

How the results depend on the processing

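The count of 7 spots called over line means ranged from 0 to 95 over the alternatives. It was 0 with median scaling, 0 with 4 times the offset and 0 after subtracting the 5th percentile of each array. It was 2 with no scaling, 2 against C3H-10T1/2 alone, 12 with the line as a random block and 45 in the fit over arrays. In that fit it was 95 without Hgfu and 94 without Raw 264 replicate 1, both chosen after seeing the data. Leaving out 1 line or array at a time gave 2 (without 3T3-F442A or Ob1774) to 33 (without Hgfu). Fcer1g kept its call in 18 of 35 alternatives, Aldoa in 26 of 35 and Parvg in 20 of 34, with a positive fold change in each. These counts include both fits chosen after seeing the data, in which each of these genes was called.

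Between Raw 264 and J774, 6 spots became 0 with quantiles over 13 arrays, 0 with median scaling, 0 with no scaling, 0 in a fit of the 7 lines only, 3 after subtracting the 5th percentile and 13 with the trend over spot order removed; leaving out 1 array gave 0 to 15, the highest without Raw 264 replicate 3. Between C3H-10T1/2 and preadipocyte lines, 5 became 0 with median scaling, 0 with no scaling, 0 in the fit of the 7 lines only, 3 with a floor in place of the offset, 3 after subtracting the 5th percentile and 9 with the trend removed. There the majority of calls turned to higher with quantiles over 13 arrays (1 call) and with bright spots only (3 calls), and leaving out 1 array gave 1 to 22, the highest without Ob1774. For peritoneal macrophages against stroma-vascular cells, 29 became 16 with median scaling, 3 with no scaling, 0 after subtracting the 5th percentile and 15 with bright spots only; leaving out 1 array gave 17 to 26, and the 26, without stroma-vascular replicate 1, were mostly lower. The cause of these changes was not tested.

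With the replicate block, 3 spots were called in the numbered arrays against C3H-10T1/2 (2 without it), and Fcer1g, Aldoa and Parvg were called in neither fit. The pairing passed the check for Raw 264 with C3H-10T1/2 alone, though the values of that check are tied to each other. In pairs that did not pass it, the block left 0 calls between Raw 264 and J774 and 15 between the primary cells (23 in those arrays without it).

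Without scaling the sign turned for Mertk over lines (0.16) and for Cd163 in primary cells (0.15), where the median of all spots shifted by 0.19 and 0.27, and between Raw 264 and J774, where it shifted by -0.72, for Fcer1g (-0.18), Aldoa (-0.46), Parvg (-0.55), Cybb (-0.17), Itgb2 (-0.54) and Ccl9 (-0.57), none of them called. Cd163 in primary cells also turned to 0.012 with the trend removed, and with 1 array left out it ran from -0.12 to 0.0048. Spots near the lower end of the intensities limit what a fold change can show.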
